A study of Mus musculus with 6 samples.

Results

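Developmental lineage transcription factors are the regulators that lay out the body axis and give organs and cell types their identity: the Hox, Pax, Sox, Fox, Gata, Nkx, Pou, Lhx, Tbx, Cdx and Neurod families, the family of Six2 and Six4, Pdx1, and the muscle regulators Myod1 and Myog. The members were chosen by gene symbol alone, as every probe set annotated with a single gene whose symbol belongs to 1 of these families. They numbered 168 probe sets of 128 genes, out of 12422 probe sets that are not controls. Of these, 163 probe sets of 125 genes encode transcription factors. The symbol pattern also took in 3 probe sets of thromboxane genes (Tbxa2r and Tbxas1), which encode a receptor and an enzyme, and 2 of the antisense RNA Hoxa11os. Another 3 probe sets that match the pattern by name were annotated with several genes and were left out.

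The cells were medullary thymic epithelial cells sorted as CD45-, G8.8+, CDR1int and B7.1hi from B6/129 F2 mice aged 3 to 5 weeks. The 3 wild type arrays and the 3 aire-/- arrays each carried RNA of 1 pool of 5 animals, males and females together, and the aire-/- animals had both copies of Aire disrupted in every cell. RNA of both groups went through 2 rounds of T7 amplification. Of 13 markers of medullary epithelium fixed for this check, 12 were on the array, and 10 lay above the dim limit (below) on all 3 arrays of each group. The keratins Krt5 and Krt14, which define the medullary lineage, lay under that limit on all 6 arrays. The summed signal of the 12 markers was 3376 to 3814 on the wild type arrays and 4186 to 4878 on the aire-/- arrays. Most of each sum came from H2-Aa and H2-Ab1, so it says little of the other markers. H2-Aa gave 1859 to 2045 in wild type and 2331 on every aire-/- array. H2-Ab1 gave 527 to 780 and 929 to 1393. Of the 11 tested probe sets of the markers, 8 were higher in value and 3 lower in aire-/- cells. The share lower was 27.3%, against 46.9% of all tested probe sets. Epcam, singled out after its values were seen, fell in value from 197 to 89.2.

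Aire is a nuclear protein through which medullary epithelial cells transcribe genes that are otherwise restricted to single peripheral organs, and the display of those gene products removes self-reactive T cells. In the organs themselves such genes are switched on by lineage regulators: Foxa and Gata factors in liver and gut, Pdx1 and Neurod1 in pancreatic islets, Myod1 and Myog in muscle. A separate set of the same families, among them Foxn1, Pax1, Pax9 and Hoxa3, builds the thymus from the pharyngeal pouches. The comparison asked whether lineage regulators were lower in the cells without Aire, alongside the tissue genes they are known to control.

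No member regulator passed the threshold as lower. In the limma fit over all 7768 probe sets tested, 0 member probe sets were lower at an adjusted p under 0.05, against 1.38% of all probe sets tested. Member probe sets called higher numbered 1, that of Tbx15, against 0.348% of all. Before adjustment, at p under 0.05, 3 members were lower and 4 higher, that is 5.0% and 6.67%, beside 7.81% and 6.44% over all probe sets. With the replicate number as a block, 1 member was lower (Sox2) and 2 were higher (Tbx15 and Pax5), against 3.37% and 1.93% of all. Over all probe sets the calls without the block were 107 lower and 27 higher, and 102 and 71 on the values as deposited, where the median of all probe sets shifted to 0.17. The median log2 change (aire-/- minus wild type) of the 60 tested members was -0.04, and that of all tested probe sets was 0.05. Of the 60 tested members, 32 lay below 0 and 28 above, with values from -1.55 to 2.17. The share below 0 was 53.3%, against 46.9% of all tested probe sets. In bulk RNA such as this, fewer cells that carry a transcript and less of it per cell cannot be told apart.

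**Figure D1:**
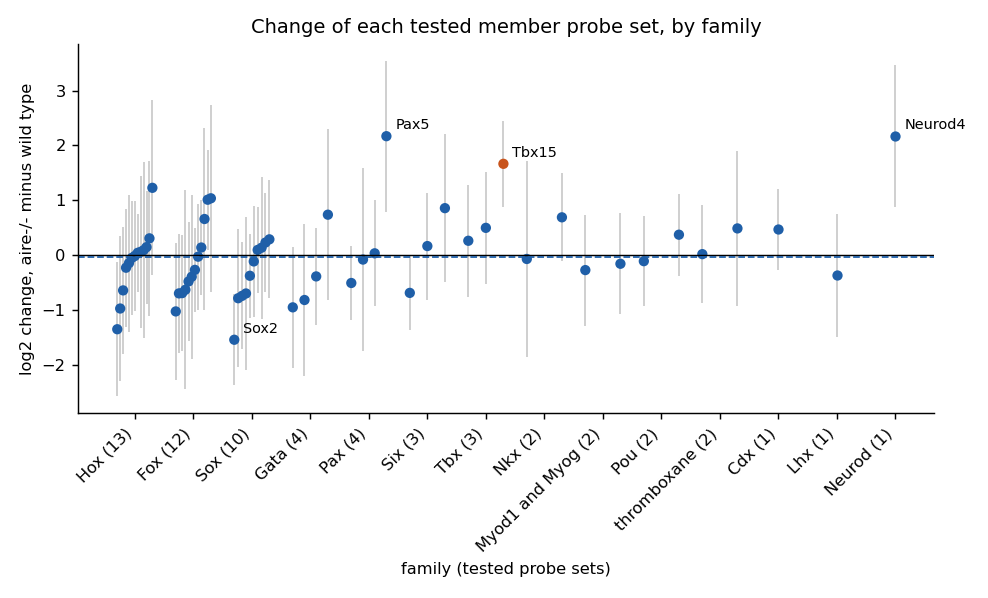
The log2 change (aire-/- minus wild type, vertical axis) of each of the 60 tested member probe sets is drawn by family, with 95% confidence intervals as grey lines. Most points lie near 0, the dashed line marks the median of -0.04, and Tbx15, in orange, is the member past the threshold.

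Most members gave little signal in either group. The dim limit, the 40th percentile of normalized signals over all 6 arrays, was 5.53 signal units, and a probe set was tested if it exceeded that limit on at least 3 of the 6 arrays. This held for 60 of the 168 members (35.7%), against 62.5% of all probe sets. Of the 108 members that were not tested, 69 lay under the limit on all 6 arrays, 25 exceeded it on 1 array and 14 on 2. Among the untested, 17 exceeded the limit on more wild type than aire-/- arrays and 15 on more aire-/- arrays. Probe sets differ in how strongly they respond, so a dim signal gives no order of transcript levels between genes.

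Few members passed from detection to dimness between the groups. Above the limit on all 3 wild type arrays and under it on all 3 aire-/- arrays lay 2 member probe sets, Hoxc9 and Hoxa5, or 1.19% of 168, against 1.01% of all probe sets. The reverse pattern was seen for 1 member, Neurod4, or 0.595%, against 0.459% of all. These 3 members passed the filter only through the group where they were high, so no p is given for them, and their place in the counts supports nothing.

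**Figure D2:**
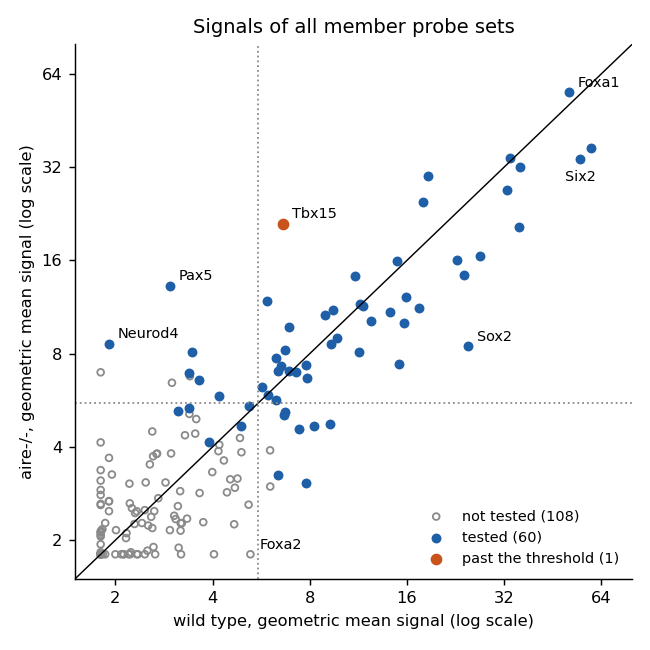
Geometric mean signals of all 168 member probe sets in wild type (horizontal) and aire-/- cells (vertical), both on log axes, with the line of equal signal and dotted lines at the dim limit of 5.53. The 108 open circles are members that were not tested, and Tbx15 is the point past the threshold.

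The precision of single probe sets was limited by the 3 arrays in each group. The standard error of the log2 change had a median of 0.48 over the tested members and of 0.39 over all tested probe sets. The 95% confidence interval excluded a 2-fold fall for 25 of the 60 members (41.7%, against 60.2% of all tested probe sets). For the other 35 members a 2-fold fall therefore lay within the interval. A 4-fold fall was excluded for 51 of the 60 (85.0%, against 90.8% of all).

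Tbx15, a T-box regulator of limb, skeletal and adipose development, was the member called higher. It gave 6.0, 5.45 and 8.92 in wild type and 17.0, 23.5 and 23.2 in aire-/- cells. Every aire-/- array lay above every wild type array. The geometric means were 6.63 (SD 0.38 on the log2 scale, n = 3) and 21.0 (SD 0.26, n = 3), which is a log2 change of 1.66 ± 0.36 (SE; limma, adjusted p = 0.0448). It was past the threshold under 6 of 19 alternatives (adjusted p from 0.0177 to 0.373 in limma), and the call was lost when any 1 of the 6 arrays was left out (0.0706 to 0.215). The other probe sets of Tbx15, of which there were 2, stayed under the dim limit on all 6 arrays, at 3.15 at most.

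Sox2, a regulator of foregut, neural and epithelial progenitors, had the largest fall in value among the tested members. Its only probe set gave 24.5, 34.8 and 17.8 in wild type and 11.4, 8.23 and 6.50 in aire-/- cells. The groups did not overlap, and the log2 change was -1.55 ± 0.38 (95% interval -2.38 to -0.72, adjusted p = 0.0711 in limma). The fall missed the threshold there, and passed it with the replicate number as a block (adjusted p = 0.0212) and with array weights (-1.39, adjusted p = 0.0459). The name of this probe set carries the suffix r, which marks a design with relaxed rules for choosing probes.

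Neurod4, a basic helix-loop-helix factor of neuronal differentiation, and Pax5, the regulator of B cell commitment, had the largest differences in the other direction. Neurod4 measured 0.467, 0.2 and 2.15 in wild type and 7.62, 6.88 and 12.2 in aire-/- cells. All wild type values lay under the dim limit, so the aire-/- mean was at least 1.56-fold higher. Pax5 measured 7.93, 0.833 and 1.73 in wild type and 17.5, 10.2 and 13.0 in aire-/- cells.

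The Pax5 groups did not overlap, and 2 of the 3 wild type arrays were at the floor of 1.8. Its log2 change was 2.17 ± 0.62 (limma, adjusted p = 0.130, or 0.0317 with the replicate block). A second Pax5 probe set stayed under the dim limit on all 6 arrays, at 2.47 at most. Of 8 B cell markers, 7 were on the array and 5 lay above the dim limit on all 3 arrays of each group. Their summed signal was 94.2 to 126 on the wild type arrays and 153 to 158 on the aire-/- arrays, and without Blk, a B cell kinase gene, it was 72.5 to 80.5 and 76.0 to 112. The markers did not move one way: of 10 tested probe sets, 7 lay above 0 and 3 below. The share below 0 was 30%, against 46.9% of all tested probe sets. Blk rose in value from 26.3 to 64.6 and, on a second probe set, from 5.87 to 11.75. Ms4a1, which encodes CD20, was lower on both tested probe sets (13.8 to 3.74 and 14.1 to 9.37). The part of the B cell markers in the Pax5 values was not tested. These genes, and those named below from other marker lists, were singled out after their values were seen.

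The promoters of these members are shown as the 150 bases before the transcription start, with that of Fabp2, a gut fatty acid binding protein gene that fell in the cells without Aire. The capitals mark CpG dinucleotides. The sequences are RefSeq's on GRCm38.p6, at the first start listed for each gene, read 5′ to 3′ on the strand of the gene.
Sox2 (chr3:34649845-34649994, plus strand): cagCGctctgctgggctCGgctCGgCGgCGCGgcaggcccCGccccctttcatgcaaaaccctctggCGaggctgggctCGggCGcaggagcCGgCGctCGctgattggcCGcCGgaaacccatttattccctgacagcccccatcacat
Neurod4 (chr10:130280255-130280404, minus strand): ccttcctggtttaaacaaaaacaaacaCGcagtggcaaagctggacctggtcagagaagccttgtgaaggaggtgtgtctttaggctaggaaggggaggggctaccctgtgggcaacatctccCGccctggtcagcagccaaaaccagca
Pax5 (chr4:44710695-44710844, minus strand): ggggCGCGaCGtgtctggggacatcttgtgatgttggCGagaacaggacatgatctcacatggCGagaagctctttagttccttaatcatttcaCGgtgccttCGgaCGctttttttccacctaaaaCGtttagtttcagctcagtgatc
Fabp2 (chr3:122894922-122895071, plus strand): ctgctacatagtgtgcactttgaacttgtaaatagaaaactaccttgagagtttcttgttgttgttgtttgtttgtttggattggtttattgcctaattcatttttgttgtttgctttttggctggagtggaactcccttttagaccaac

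In windows of 300 bases around the start, Sox2 had 27 CpGs, Pax5 23, Neurod4 4 and Fabp2 3, and the median over 27025 RefSeq promoters was 7.0. Tbx15, Hoxc9 and Foxn2 have no promoter shown here. Promoters matched 88 of the 128 member genes (68.8%), too few for a comparison of promoters between the members and other genes, which is therefore void.

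Of the tested members, 5 were lower and 6 higher with no overlap between the groups, or 8.33% and 10%, against 10.1% and 10.4% of all tested probe sets. By at least 2-fold without overlap, in fitted values with dim signals raised to 1.8, 2 members were lower (Sox2 and Hoxc9), against 5.27% of all, and 4 were higher (Neurod4, Pax5, Tbx15 and Foxn2), against 3.99%. The bounds against the dim limit were under 2-fold for Hoxc9 and Neurod4, and with dim signals raised to that limit the counts were 1 and 2. Hoxc9, a Hox gene of the posterior trunk, measured 6.52, 8.18 and 8.92 in wild type and 3.72, 1.17 and 4.25 in aire-/- cells. The wild type mean was at least 1.41-fold above the limit under which all aire-/- values lay. Its probe set, like that of Foxn2, carries the suffix f and may bind several members of its family. Foxn2, a forkhead factor, measured 7.0, 7.48 and 3.90 against 9.97, 11.9 and 14 (log2 change 1.01 ± 0.41), and a second probe set stayed under the dim limit on all 6 arrays.

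**Figure D3:**
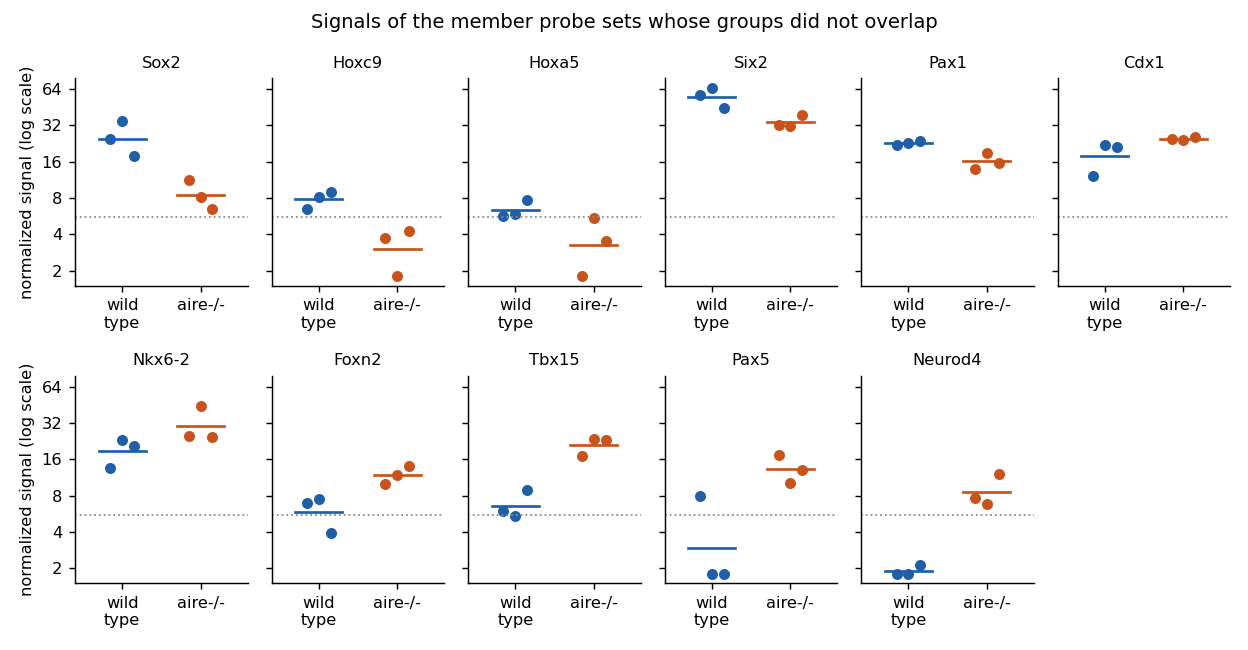
Normalized signals (log axis, raised to the floor of 1.8) of the 11 member probe sets whose groups did not overlap, with 3 points per group, bars at the geometric means and a dotted line at the dim limit of 5.53. Sox2, Hoxc9, Hoxa5, Six2 and Pax1 were lower and the other 6 higher in aire-/- cells.

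The thymus and pharyngeal pouch regulators included 14 member probe sets of 11 genes, of which 9 were tested, 0 passed the threshold and 6 lay below 0, with a median log2 change of -0.48. The share below 0 was 66.7%, against 46.9% of all tested probe sets. Pax1, which acts in the pharyngeal pouches and in growth of the thymus, measured 22.1, 23.0 and 23.7 in wild type and 13.9, 19.0 and 15.7 in aire-/- cells. The groups did not overlap, and the difference of -0.51 ± 0.30 missed the threshold (adjusted p = 0.494 in limma). Foxn1, the regulator without which no functional thymic epithelium forms, gave 9.75, 14.9 and 10.1 against 4.35, 7.55 and 16.3. Its highest value was on an aire-/- array and its lowest on another (log2 change -0.48 ± 0.49).

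Foxa1, a forkhead factor that opens chromatin in endodermal organs, gave 81.1, 28.3 and 57.6 in wild type and 53.4, 52.6 and 62.2 in aire-/- cells. The aire-/- values lay within the wild type range, and the log2 change was 0.14 ± 0.39. The sign of this difference turned to -0.29 without wild type array 2, which held the lowest value. Both tested probe sets of Six4, a homeobox factor of sensory and muscle precursors, overlapped between the groups (log2 changes 0.85 ± 0.61 and 0.16 ± 0.44). Pax9, Hoxa3, Foxa2 and Foxc1 were too dim to be tested. Foxa2 measured 8.26, 8.89 and 1.96 in wild type and 0.8, 1.27 and 0.567 in aire-/- cells, above the limit on 2 wild type arrays and on 0 aire-/- arrays.

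Among regulators of gut, liver and pancreas, 24 probe sets of 20 genes were members, 10 were tested and 0 passed the threshold, with 5 below 0, 5 above and a median at 0. Over all tested probe sets 46.9% lay below 0. Cdx1, a regulator of the intestinal epithelium, measured 12.3, 22.2 and 21.2 in wild type and 24.4, 24.2 and 25.7 in aire-/- cells. The aire-/- values lay above the wild type values by a small margin (log2 change 0.47 ± 0.34, adjusted p = 0.578 in limma). Nkx6-2, a homeobox factor of neural and islet precursors, measured 13.6, 23.2 and 20.6 against 25.2, 44.0 and 24.4 (log2 change 0.69 ± 0.36, adjusted p = 0.439). Pdx1, the islet and duodenal regulator, was under the dim limit on all 6 arrays, as were Cdx2 and Foxa3. These 3 dim genes were singled out after their values were seen.

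The Hox genes, which set position along the body axis, were represented by 40 probe sets with the antisense RNA. Of these 13 were tested, with 7 below 0 (53.8%, against 46.9% of all tested probe sets), a median of -0.02 and 0 past the threshold. By cluster, 4 of 14 Hoxa, 5 of 10 Hoxb, 3 of 5 Hoxc and 1 of 9 Hoxd probe sets were tested, with medians of 0.06, -0.15, 0.06 and -0.05. Hoxa5, a Hox gene of lung and foregut, measured 5.70, 5.95 and 7.73 against 1.02, 5.43 and 3.52. The groups lay on either side of the dim limit, with a wild type mean at least 1.16-fold above it. Hoxa4 gave 26.8, 40.5 and 34.5 against 41.9, 27.2 and 35.7 on 1 probe set with the suffix r, and its 3 other probe sets were too dim to be tested.

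The neural and sensory regulators were members with 43 probe sets of 33 genes, of which 9 were tested, 0 passed and the median was 0.03. Besides Sox2, Neurod4 and Pax5 they included Lhx6, a LIM homeobox factor of forebrain interneurons, which gave 6.12, 10.1 and 4.85 against 7.38, 4.90 and 3.82. The groups overlapped (log2 change -0.37 ± 0.51).

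Of the regulators of muscle, heart and lung, 24 probe sets of 17 genes were members and 9 were tested, with a median of -0.16 and 0 past the threshold. Myog, which drives terminal differentiation of skeletal muscle, gave 35.1, 60.3 and 21.9 in wild type and 45.4, 30 and 24.4 in aire-/- cells. The groups overlapped, and the log2 change of -0.16 ± 0.42 turned to 0.06 with the deposited values and with median scaling. Gonad, kidney, skin and skeletal regulators had 25 probe sets, 7 of them tested, with a median of -0.11 and Tbx15 as the call. Six2, which maintains nephron progenitors in the kidney, measured 56.7, 65.4 and 44.6 against 32.2, 31.4 and 38.8. Its groups did not overlap (log2 change -0.69 ± 0.30, adjusted p = 0.332 in limma). Pou2f3, a POU factor of tuft cells and of keratinocytes, gave 11.2, 10.6 and 11.4 against 15.9, 17.0 and 10.7 (log2 change 0.37 ± 0.34).

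The blood and immune regulators were members with 14 probe sets of 10 genes, 9 of them tested, with 7 below 0, a median of -0.39 and 0 past the threshold. The share below 0 was 77.8%, against 46.9% of all tested probe sets. Gata3, which acts in T cell and epithelial development, gave 13.6, 23.2 and 12.8 against 7.83, 14.7 and 15.7. The groups overlapped (log2 change -0.39 ± 0.40). Of 11 T cell markers 10 were on the array, and their summed signal ranged from 82.2 to 154 in wild type and from 86.1 to 180 in aire-/- cells, so that it overlapped too. Myeloid and dendritic cell markers, of which all 10 were on the array, summed to 300 to 417 in wild type and 215 to 239 in aire-/- cells, with Elane and Itgam under the dim limit on all 6 arrays. Without Cd14, which gave 148 and 45.9, the sums were 206 to 249 and 171 to 201. Of the 8 tested probe sets of these markers, 6 lay below 0 (75%), against 46.9% of all tested probe sets. Ly6g gave 26.6 in wild type and lay under the dim limit on all 3 aire-/- arrays, at least 4.81-fold lower. Cd68 went the other way (6.85 and 21.4), and Lyz2 gave 122 and 120. Their part in these values was not tested. Tbxas1, thromboxane synthase and no transcription factor, gave 9.69, 16.2 and 9.63 against 15.9, 7.48 and 13.2. The role lists share some genes, so their counts do not add up to the 60 tested members.

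Several of the negative values rested on wild type array 2. The beta-actin signal of the 3' probe set was 95.8 times that of the 5' one on this array, against 4.38 to 13.8 on the other 5 arrays, a measure that rises with loss of the 5' end of transcripts. It held the highest of the 6 signals for 24 of the 60 tested members (40%), against 27.4% of all tested probe sets. The median deviation of members on that array from their mean over the 6 arrays was 0.38 on the log2 scale, against 0.04 for all probe sets. Sox4, a factor of progenitor cells in many tissues, gave 17.0, 96.6 and 27.3 in wild type and 14.3, 20.6 and 29.6 in aire-/- cells.

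Without that array the wild type and aire-/- values of Sox4 overlap closely, and a second Sox4 probe set gave 10.3, 16 and 17.4 against 10.6, 9.98 and 12.3. With a term for 3' bias the log2 change of the first Sox4 probe set turned from -0.79 to 0.11. Foxj1, the regulator of motile cilia, gave 39.4, 129 and 41.9 against 24.3, 39.7 and 51.9, again with the highest value on wild type array 2. Between same-numbered arrays the median log2 change of the members was 0.06, -0.34 and 0.11 for numbers 1, 2 and 3. Left out, the array moved the median of the 60 members from -0.04 to 0.04. Other arrays moved it as well. It was -0.18 without wild type array 3, -0.12 without aire-/- array 2 and 0.05 without aire-/- array 3. Markers of fibroblasts and endothelium summed to 369 on wild type array 2 and 366 on aire-/- array 2, against 166 to 253 on the other 4 arrays. The excess lay in Dcn, the gene of the matrix protein decorin: without it the sums were 137 and 125, against 93.1 to 128. The part of these markers in the members' values was not tested.

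**Figure D4:**
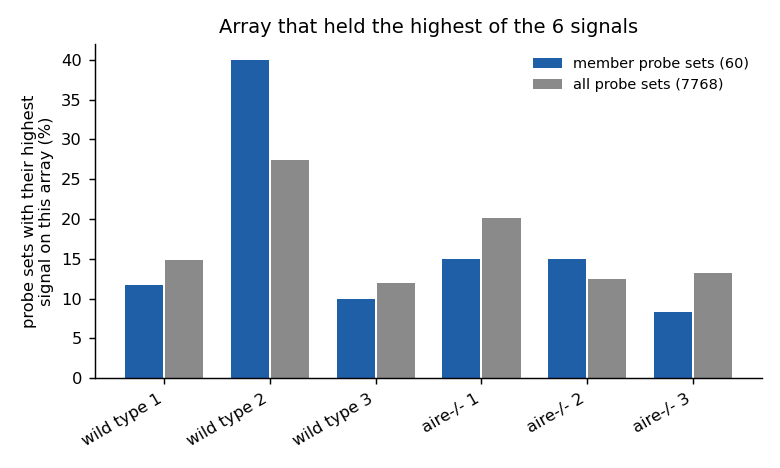
Share of the 60 tested member probe sets (blue) and of all 7768 tested probe sets (grey) whose highest signal of the 6 lay on each array, in percent. Wild type array 2 held 40% of the members' highest signals.

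Partners of the members and other regulators were also without a call. Of 33 cofactor genes on the array (Pbx and Meis partners of Hox proteins, Eya and Dach coregulators, Lmo, Id, Tle and others), 28 probe sets were tested. Of these 0 passed the threshold in limma, and the median log2 change was -0.26. With p under 0.05 in limma before adjustment, 5 lay lower and 1 higher, beside 7.81% and 6.44% of all tested probe sets. Without overlap 8 were lower and 0 higher, or 28.6% and 0%, against 10.1% and 10.4% of all tested probe sets. Id2, an inhibitor of basic helix-loop-helix factors, was singled out after its values were seen: it gave 95.4, 84.0 and 70.8 in wild type and 45.2, 34.9 and 43.2 in aire-/- cells. Its groups were well apart (log2 change -1.02 ± 0.29), with an adjusted p of 0.130 in limma, or 0.0481 with the replicate block.

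Of 94 further lineage regulators outside the members' families, 40 probe sets were tested and 0 passed the threshold in limma. At an unadjusted p under 0.05 in limma, 2 were lower and 1 higher, beside 7.81% and 6.44% of all tested probe sets. Without overlap 5 were lower and 2 higher, or 12.5% and 5%, against 10.1% and 10.4% of all. The median log2 change of the 40 was -0.31. The largest fall in value, also picked after it was seen, was that of Klf5, a zinc finger factor of gut and skin epithelium. It gave 23.5, 47.0 and 31.3 in wild type and 2.70, 9.73 and 12.7 in aire-/- cells, with no overlap. The log2 change was -2.23 ± 0.55, and the adjusted p of 0.0734 in limma missed the threshold without the block and passed with it (0.00634).

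Of 80 textbook targets on the array, tissue genes that such regulators are known to control, 54 probe sets were tested. At an adjusted p under 0.05 in limma 10 of them fell and 3 rose. These shares were 18.5% and 5.56%, against 1.38% and 0.348% of all tested probe sets. The median log2 change of the 54 was -0.65, against -0.04 for the member regulators, and the difference between the lists was not tested. This list was drawn up with falls of tissue genes in these data already known, so it is not independent evidence of its direction. Cps1, a urea cycle enzyme of the liver, gave 13.8, 24.9 and 27.3 in wild type and 4.87, 1.02 and 5.15 in aire-/- cells, a fall of at least 3.81-fold. Cps1 and the called probe sets of Ins2, Fabp2, Fgg and Nppb were under the dim limit on all 3 aire-/- arrays. These probe sets passed the filter only through the wild type group. No p is therefore given for them, and their place among the 10 falls supports nothing. With targets that were not called, 10 of the 54 tested probe sets passed the filter only through the wild type group. For 1 the reverse held. These probe sets also entered the median of -0.65, and their place in it supports nothing.

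Fabp1, a fatty acid binding protein of liver and gut, fell from 46.9 to 13.7 (adjusted p = 0.0345 in limma). Among the regulators known to act on such liver and gut genes, Foxa1 measured 50.9 and 55.9, and Foxa2, Foxa3 and Cdx2 were too dim to be tested. Gata4, which acts in liver and gut endoderm, gave 12.2, 10.1 and 6.4 in wild type and 5.42, 6.88 and 2.88 in aire-/- cells. The groups overlapped (log2 change -0.96 ± 0.50, adjusted p = 0.431 in limma). Cebpa, a regulator of liver genes on the list of other regulators, gave 51.6 and 31.2 (log2 change -0.73 ± 0.35, adjusted p = 0.377). Both were singled out after their values were seen. Il4, a cytokine gene activated by Gata3 in T helper cells, rose from 22.6 to 84.7 (adjusted p = 0.0212 in limma). A second Il4 probe set, under the dim limit on all 3 wild type arrays, was at least 4.46-fold higher in aire-/- cells. It passed the filter only through the aire-/- group, so no p is given for it, and its place among the 3 rises supports nothing. The other Il4 probe sets were too dim to be tested. Gata3 itself measured 15.9 and 12.2. The other calls among the targets were falls of Hbb-y, Ins2, Fabp2, Fgg, Pomc, Apoa1, Nppb and Tnnt1 and a rise of Ccl25. Ins2 fell on 1 probe set, with the suffix f, and a second tested probe set gave 10.9 and 11.7 (log2 change 0.11 ± 0.46).

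**Figure D5:**
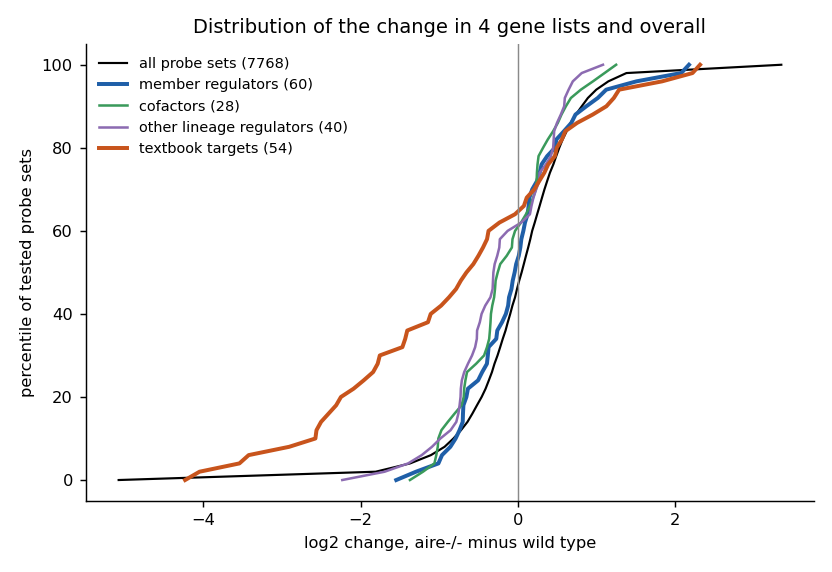
Percentile (vertical) against log2 change (aire-/- minus wild type, horizontal) for all 7768 tested probe sets, the 60 member regulators, 28 cofactor, 40 other regulator and 54 textbook target probe sets. The curve of the members runs beside that of all probe sets near 0, with a median of -0.04, and that of the targets extends to the left, with a median of -0.65. Of the 54 target probe sets, 10 passed the filter only through the wild type group.

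Genes with several probe sets rarely had more than 1 bright one. Of 31 member genes with more than 1 probe set, 18 had 1 that was tested, 2 had more (Sox4 and Six4) and 11 had none. A single tested probe set thus stood for most of these genes, as for Tbx15, Pax5, Foxn2 and Hoxa4 above.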

How the data were processed

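The authors deposited 1 linear signal intensity per probe set and array; their software, background correction and scaling: not given in the sources used here. Per the labels, RNA was amplified with T7 polymerase.

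Of 12488 probe sets, 66 controls were left out. The rest were quantile normalized, raised to the pooled 20th percentile (1.8) and log2 transformed, which shortens the differences of dim probe sets. Testing required a signal above the 40th percentile of all arrays (5.53) on 3 or more of the 6. For a group wholly under this dim limit, a fold is the brighter group's geometric mean over the limit, given as "at least". Groups were compared per probe set with limma 3.58.1 in R 4.3.3 (lmFit, eBayes with a variance trend, 2-sided) with Benjamini-Hochberg adjustment over 7768 probe sets. P-values measure the spread between pools. The procedure was tested on simulated data.

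Deviations from group means correlated at 0.37, 0.20 and 0.19 between same-numbered arrays and at -0.25 to 0.07 between others, and the arrays were treated as paired by number in the blocked fit. What the numbers stand for is not in the labels.

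All 168 member probe sets matched the annotation of GRCm38.p6 by Entrez identifier, used for names only. The members and lists were chosen with earlier results of these data known. Genes named are called members, members without overlap, the brightest member of each family, thymus regulators, their other probe sets, and called genes of 3 lists; others are said to have been picked after their values were seen. Plots were made in matplotlib 3.10.9 (Python 3.11.15).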

Additional observations from a re-analysis of the deposited data

How the results depend on the processing

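Member probe sets called lower numbered 1 (Sox2) with array weights or the replicate block, and 0 under the other alternatives. Those called higher numbered 2 with the replicate block, and 0 with the floor at the 5th percentile, without a filter, with the filter at the 60th percentile (with wild type array 2 or without it), after adding the 3' bias of each array as a covariate, and without both arrays numbered 2. Leaving out 1 array gave 0 to 1, and that 1 was Pax5, without wild type array 1 (adjusted p = 0.0405 in limma). Over all 7768 probe sets tested, 166 were called lower and 72 higher with array weights, and 262 and 150 with the block. With 1 array left out these counts were 25 to 79 and 2 to 16. Without the variance trend Tbx15 was not called. The 1 member counted there was Neurod4, which passed the filter only through the aire-/- group, so that count supports nothing. Falls of at least 2-fold without overlap numbered 1 with the floor at the 40th percentile or the filter at the 60th (also without wild type array 2), 4 without a filter or without both arrays numbered 2, 0 over members of the plain probe design, and 3 to 5 with 1 array left out. Such rises numbered 2, 1, and 7 without a filter, under these floor and filter settings, and 3 to 7 with 1 array left out. The members' median was -0.38 over the 23 members of the stricter filter, against 0.06 for all probe sets, and -0.12 there without wild type array 2. The settings that combine or drop arrays numbered 2, and those on member subsets, were chosen after seeing the data.

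Of 24 named tested members, 18 kept their direction under every alternative run. The 24 include the 5 lower and 6 higher members named because their groups did not overlap. Leaving out arrays could not turn the direction of these, so the count of 18 is partly fixed by how they were chosen. Myog turned to 0.058 with deposited values, 0.059 with median scaling, 0.076 with array weights, 0.045 with the 3' term, 0.26 without both arrays numbered 2 and 0.21 with the stricter filter without wild type array 2, and ranged from -0.52 to 0.21 with 1 array left out. Sox4 turned to 0.11 with the 3' term. Foxa1 turned to -0.053 with array weights, -0.30 with the 3' term, -0.24 without both arrays numbered 2 and -0.29 with the stricter filter without wild type array 2, and ranged from -0.29 to 0.47. Tbxas1 and Hoxa4 turned to -0.040 and -0.046 with array weights, and ranged from -0.21 to 0.33 and from -0.12 to 0.21. Six4 ranged from -0.081 to 0.34. The causes were not tested. Dim signals limit the 108 untested members.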
